A study of Mus musculus with 2 samples.

Results

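The transcripts of 10 glycolytic enzymes were followed through mouse bone marrow by single-cell RNA-sequencing (sc-RNA-seq). The members were picked as a named pathway, with earlier results of these data known. They are Gpi1, Pfkl, Aldoa, Tpi1, Gapdh, Pgk1, Pgam1, Eno1, Pkm and Ldha, and all 10 are among the 13211 genes that the count tables list. The study deleted Col1a1, the gene of the type I collagen α1 chain, in cells that express Cre from the Fsp1 (S100a4) promoter. There was 1 library of Fsp1-Cre;Col1a1flox/flox mice (Col1a1fspKO) and 1 library of Cre-negative;Col1a1flox/flox littermates (WT), so the controls carry the floxed alleles too and the groups differ in Cre. Both groups were 2 months old and untreated. Each library was made from the marrow of 2 mice, flushed from femur and tibia, pooled and sorted for live cells. S100a4, whose promoter drives the Cre, is itself transcribed in marrow cells, with 2026 unique molecular identifiers (UMIs, each standing for 1 captured mRNA) in Col1a1fspKO and 2184 in WT. Col1a1 had 3 UMIs in Col1a1fspKO and 0 in WT, and Col1a2 had 0 and 11, so the deletion could not be checked in these cells.

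Glycolysis splits glucose into pyruvate in the cytosol and yields ATP without oxygen. Its upper steps use ATP to turn glucose into triose phosphates, its lower steps regain ATP from them, and lactate dehydrogenase then converts pyruvate to lactate and recycles NAD+. Neutrophils hold few working mitochondria once mature and are known to depend on glycolysis, whereas erythroid cells end with no mitochondria at all and use a different pyruvate kinase gene.

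In GRCm38 (the same assembly as the mm10 build of the tables), with genes taken from GENCODE M21, Ldha lies at chr7:46841475-46855627, Gpi1 at chr7:34201330-34230336 and Aldoa at chr7:126795234-126800751. Gapdh lies at chr6:125161715-125166467 and Tpi1 at chr6:124810586-124814296. Pgk1 is X-linked at chrX:106187100-106203699, Pkm is at chr9:59656368-59679375, Eno1 at chr4:150236721-150248879, Pgam1 at chr19:41911923-41918660 and Pfkl at chr10:77986947-78010083. All are annotated as protein-coding. The tables give symbols only, and the Aldoa symbol has a further annotated gene model next to it at chr7:126800790-126809108. Reads near the 3' end could be split between copies for 3 members. Over the last 400 bases of the transcript, Gapdh shared at least 95% identity with 104 other genes, of which 102 are annotated pseudogenes. Only 2 of these are listed in the count tables, with 15 UMIs in Col1a1fspKO and 6 in WT. Eno1 shared its end with Eno1b, which had 124 UMIs in Col1a1fspKO and 99 in WT, and Gpi1 with 2 genes, of which the 1 listed had 2 and 0 UMIs.

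Because most members went up and down together over the cell groups described below, the bases upstream of their starts were read. ACGTG is the core of the element that hypoxia-inducible factors recognise, and glycolytic genes are known targets of those factors. Within 250 bases before an annotated RefSeq start (GRCm38.p6), ACGTG on either strand occurred in 6 of the 16 windows of the members and in 5 of the 10 genes (Ldha, Pgk1, Pgam1, Pkm and Aldoa). The windows of Aldoa with a match are 2 that overlap and hold the same one. ACGTG occurred in 16.6% of the 32851 windows of all genes, a share to be set beside the 6 of 16 windows. No share by gene was taken over all genes, so the 5 of 10 genes have no background here. The palindrome CACGTG, in which ACGTG is found on both strands at once, occurred only in a window of Ldha among the members, and in 6.02% of all windows. The upstream windows of Ldha, which held the most matches, and of Pgk1, which differed most between the libraries, are printed 5' to 3' with the matches (ACGTG, or its reverse complement CACGT) in capitals. The Ldha window is chr7:46845554-46845803 and the Pgk1 window chrX:106186850-106187099, both on the plus strand.
Ldha: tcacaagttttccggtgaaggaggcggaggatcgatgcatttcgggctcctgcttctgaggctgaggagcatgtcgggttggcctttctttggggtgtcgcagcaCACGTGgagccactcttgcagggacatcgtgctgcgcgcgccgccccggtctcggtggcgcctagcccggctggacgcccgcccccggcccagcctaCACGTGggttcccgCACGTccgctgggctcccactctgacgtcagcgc
Pgk1: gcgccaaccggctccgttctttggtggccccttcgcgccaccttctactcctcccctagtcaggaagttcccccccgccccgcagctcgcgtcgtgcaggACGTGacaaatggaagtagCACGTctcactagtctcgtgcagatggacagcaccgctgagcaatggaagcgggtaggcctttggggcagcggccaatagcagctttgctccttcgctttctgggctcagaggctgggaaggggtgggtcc
A match is a run of letters and not evidence of a binding site, and no binding was measured here.

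The Col1a1fspKO library comprised 8647722 UMIs over 1309 cells (median 4954 per cell) and the WT library 8624469 UMIs over 1169 cells (median 5534), and 2 cell barcodes occurred in both. The cells fell into 15 clusters, which were joined into 11 groups by marker genes, with the enzymes and their pathway left out of the clustering. Group names carry "-like" because they were rebuilt from markers. Levels are given as counts per 1000000 UMIs of the same cells (CPM), with exact Poisson 95% intervals where they are shown. Where a pair of values stands without further words, the first is that of Col1a1fspKO and the second that of WT. Ratios of CPM have exact binomial 95% intervals. Each UMI marks a transcript's 3' end, so levels of genes of different length can be compared. There was 1 library per genotype, so no test between genotypes was possible, and all intervals cover counting error only. In such droplets free RNA reaches all cells. S100a8, an alarmin of neutrophils and monocytes that erythroid cells lack, had 5054 and 2321 CPM in erythroid-like cells, against 221764 and 225669 CPM in mature neutrophil-like cells.

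The enzymes together made up 3128 CPM of the Col1a1fspKO library (27054 UMIs) and 2888 CPM of the WT library (24911 UMIs). Mature neutrophil-like cells had the highest summed level in both libraries, with 4780.1 and 4950.3 CPM. Erythroid-like cells had the lowest, with 770.5 and 798 CPM, so that the highest group was 6.20 times the lowest in each library. Plasmacytoid dendritic-like cells came next above them, at 1339.9 CPM (interval 1185 to 1509.97) and 1136 CPM. T and NK cell-like cells had 2926 and 2355 CPM, and B cell-like cells 3026 and 2677. By the median cell their order was the reverse, at 2494 and 2135 CPM against 1911 and 1909 CPM in B cell-like cells. Monocyte/macrophage-like cells reached 3928 and 3614 CPM. Maturing neutrophil-like cells, at 4354 and 4105 CPM, stood below the mature ones (4558 to 5011 and 4579 to 5343), with upper bounds of 4528 and 4306 CPM that did not reach these intervals. Eosinophil/basophil-like cells, only 9 and 18 cells, had 4387 and 3372 CPM, and in Col1a1fspKO their interval overlapped those of the maturing and the mature neutrophil-like cells. This order was not kept in enzyme UMIs per cell. As a mean over cells, plasmacytoid dendritic-like cells were lowest, at 6.26 and 5, with erythroid-like cells at 9.65 and 10.7. The median erythroid-like cell, however, held 2 and 3 enzyme UMIs, fewer than the median plasmacytoid dendritic-like cell, with 5 and 5. Mature neutrophil-like cells, at means of 15.3 and 17.3, stood below granulocyte-monocyte progenitor-like (31.6 and 42.8) and monocyte/macrophage-like cells (28.9 and 25.3).

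**Figure D1:**
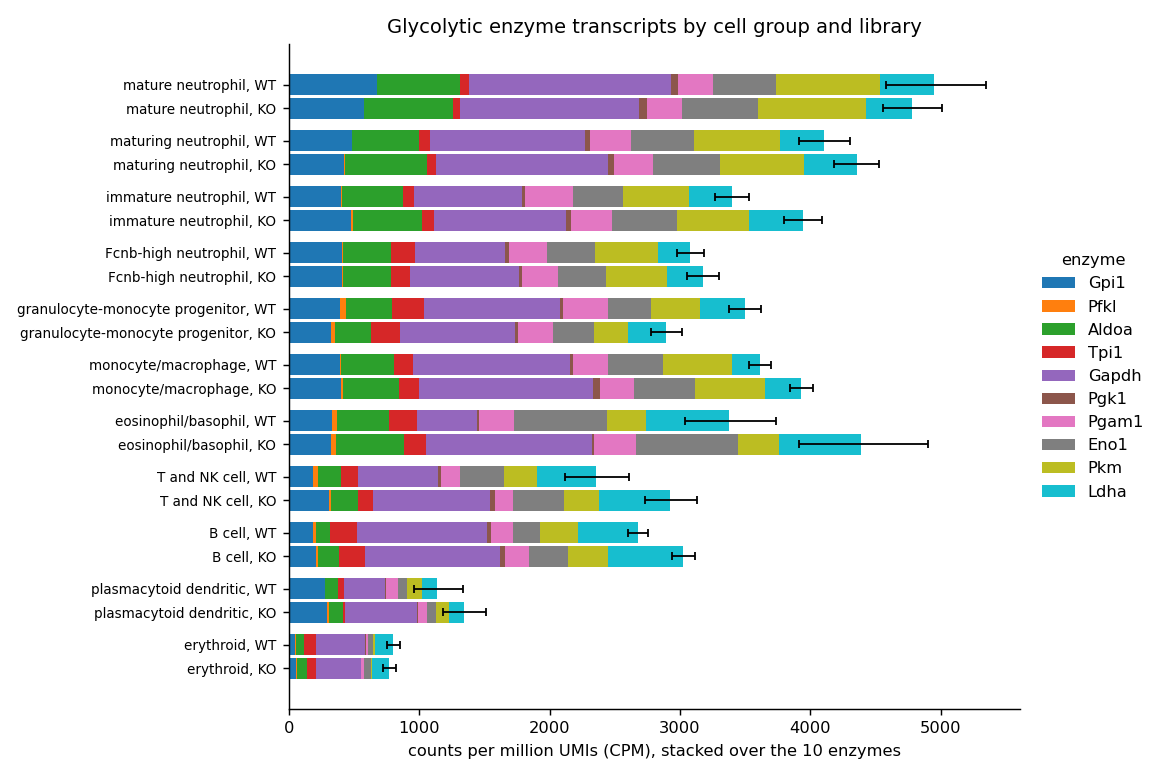
Summed level of the 10 enzymes in each of 11 cell groups, as counts per 1000000 UMIs (x axis), stacked by enzyme, with a bar for the Col1a1fspKO (KO) and the WT library of each group and the exact Poisson 95% interval of the sum in black. Erythroid-like cells are lowest at 770.5 and 798 CPM and mature neutrophil-like cells highest at 4780.1 and 4950.3 CPM.

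Gpi1 and Pfkl stand at the hexose steps. Gpi1 (glucose phosphate isomerase) was a neutrophil-high member, at 579 and 676 CPM in mature neutrophil-like cells. It was lowest in erythroid-like cells, at 52.9 and 44.1 CPM. In plasmacytoid dendritic-like cells it was second among the members, at 289 and 280.1 CPM beside 548 and 310.4 CPM of Gapdh. Pfkl, the liver-type phosphofructokinase of the committed step, was the scarcest member, with 118 and 135 UMIs over all cells. Its level was 32.1 and 45.5 CPM in granulocyte-monocyte progenitor-like cells. In mature neutrophil-like cells it had 0 UMIs in both libraries, which allows a level of up to 8.27 CPM in the former library and 22.5 CPM in the latter (3 UMIs over the group). The exact Poisson intervals of these values reach somewhat higher, to 10.2 and 27.7 CPM. From the progenitor-like to the mature neutrophil-like cells Pfkl was thus lower where Gpi1 was higher, on few UMIs.

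Aldoa and Tpi1 make and interconvert the triose phosphates, and their levels had a Pearson's r of only 0.05 with each other over the 26 combinations of cluster and library described further on. Aldoa (aldolase A) was highest in mature neutrophil-like cells, at 678 and 639 CPM, and lowest in erythroid-like cells, at 75.6 and 61.4 CPM. B cell-like cells held little of it, 159 and 104 CPM. Tpi1 (triose phosphate isomerase) was highest in granulocyte-monocyte progenitor-like cells, at 224 and 245 CPM, and second lowest in mature neutrophil-like cells, at 52.4 and 67.6 CPM. B cell-like cells had 199 and 207 CPM of Tpi1, more than of Aldoa in both libraries.

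Gapdh and Pgk1 catalyse the step that reduces NAD+ and the first step that yields ATP. Gapdh (glyceraldehyde phosphate dehydrogenase) was the most abundant member, at 992 and 897 CPM over all cells, which was 31.7% and 31.1% of the UMIs of the 10 enzymes. It varied less than the other members, from 345 CPM in erythroid-like to 1373 CPM in mature neutrophil-like cells of Col1a1fspKO, or 3.98-fold. In WT it ran from 310.4 CPM in plasmacytoid dendritic-like to 1547 CPM in mature neutrophil-like cells, or 4.98-fold. Pgk1 (phosphoglycerate kinase) was much scarcer, with 34.8 and 24.0 CPM over all cells. Its highest level was again in mature neutrophil-like cells, at 66.2 and 52.6 CPM, from 24 and 7 UMIs.

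Pgam1, Eno1, Pkm and Ldha complete the path to lactate. Pgam1 (phosphoglycerate mutase) lay between 267 and 368 CPM in every myeloid group of either library, and was at 18.5 and 12.6 CPM in erythroid-like cells. Eno1 (enolase 1) was highest in eosinophil/basophil-like cells, at 785 and 719 CPM. Pkm (pyruvate kinase) had 830 and 804 CPM in mature neutrophil-like cells and 10.9 and 11.8 CPM in erythroid-like cells. S100a8 in erythroid-like cells stood at 2.28% and 1.03% of its mature neutrophil level, and the same share of the mature level of Pkm would be 18.9 and 8.27 CPM. Pkm in erythroid-like cells was thus below this value in Col1a1fspKO and above it in WT. It is read as near background, with no fold. The erythroid level of every other member with UMIs in mature neutrophil-like cells lay above the value found in this way in both libraries. For Pgk1 in Col1a1fspKO this rested on 3 UMIs, at 2.52 CPM against 1.51 CPM. Its interval (0.52 to 7.37 CPM) held that value, so it was not set apart from background there. Ldha (lactate dehydrogenase A) was highest in eosinophil/basophil-like (631 and 636 CPM), B cell-like (582 and 463 CPM) and T and NK cell-like cells (547 and 455 CPM). Each of these was above the level in every neutrophil group of the same library.

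The B cell-like and monocyte/macrophage-like groups were not uniform. Among the 4 clusters of B cell-like cells, the one led by Myl4, Igll1 and Vpreb3 had 3396 and 2882 CPM of the 10 enzymes. Igll1 belongs to the surrogate light chain of precursor B cells. The cluster led by Ms4a1, which marks more mature B cells, had 1949 and 1698 CPM. A cluster of 14 and 9 cells led by Vpreb1, Dntt and Igll1, also genes of precursor B cells, had only 1815 and 1785 CPM, and the cluster led by Dnajc7, with Ebf1 and Vpreb3, had 2047 and 2032 CPM. Deep cells weigh more in these sums, and the clusters lay closer by their median cells. The median cell had 2150 and 2175 CPM in the Myl4 cluster and 1534 and 1628 CPM in the Ms4a1 cluster. It had 1824 and 1604 CPM in the Dntt cluster and 1659 and 1661 CPM in the Dnajc7 cluster. Ldha stood at 700.4 and 529 CPM in the Myl4 cluster against 285 and 221 CPM in the Ms4a1 cluster, and Tpi1 at 244 and 236 CPM against 80.1 and 90.6 CPM. Aldoa went the other way, at 128 and 77.6 CPM in the Myl4 cluster and 254 and 221 CPM in the Ms4a1 cluster. Among monocyte/macrophage-like cells, the cluster led by Klf4 and F13a1 had 4213 and 3925 CPM and the one led by Wfdc17 had 3621 and 3320.5 CPM. Gapdh, at 1563 and 1421 CPM against 1096 and 1000.4 CPM, Pgam1, at 351 and 364 CPM against 177 and 181 CPM, and Tpi1, at 207 and 198 CPM against 89.7 and 89.9 CPM, were higher in the Klf4 cluster. Gpi1 was lower there, at 342 and 309 CPM against 466 and 469 CPM. Erythroid-like cells were uneven as well. The median cell there had 206 and 269.8 CPM of the enzymes and the upper quartile was 706 and 881 CPM, under the summed level in Col1a1fspKO and above it in WT.

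The neutrophil groups were placed in an order by markers of maturation, from the cluster with the highest Fcnb (a ficolin of early granules) over immature cells with Ltf and Orm1 and maturing cells with Mmp8 and Mmp9 to mature cells with Retnlg and Stfa2l1. Summed enzyme CPM was 3177, 3939, 4354 and 4780.1 in this order in Col1a1fspKO, and 3079, 3396, 4105 and 4950.3 in WT. Mature over Fcnb-high neutrophil-like cells, the ratio was 1.5 (interval 1.42 to 1.60) and 1.61 (1.48 to 1.75). Each single step was also above 1 with its interval in both libraries, from 1.10 (maturing to mature in Col1a1fspKO, and Fcnb-high to immature in WT) to 1.24. The enzymes had no part in making the clusters.

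Aldoa, Gapdh, Gpi1, Eno1, Pkm and Ldha were higher in mature than in Fcnb-high neutrophil-like cells in both libraries by a log2 ratio of at least 0.32, with an interval of the ratio that left out 1. These are 6 of the 8 members with at least 100 UMIs over the groups compared. Over all genes with at least 100 UMIs, not matched for abundance, 29% passed that mark upward in Col1a1fspKO (of 1008 genes) and 18.9% in WT (of 1076 genes). Gapdh went from 838 to 1373 CPM in Col1a1fspKO, a ratio of 1.64 (1.46 to 1.84), and from 694 to 1547 CPM in WT, a ratio of 2.23 (1.90 to 2.60). Aldoa had ratios of 1.85 and 1.74, Pkm of 1.75 and 1.66, Gpi1 of 1.43 and 1.66, Eno1 of 1.58 and 1.32, and Ldha of 1.29 and 1.66. The steps between neighbouring groups were not alike. In Col1a1fspKO the ratio of immature over Fcnb-high cells was the largest step of Aldoa (1.45) and of Ldha (1.5), while Pkm and Gpi1 had theirs between maturing and mature cells (1.30 and 1.36). In WT the largest step of Pkm lay between immature and maturing cells (1.30).

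Tpi1 was the member that was lower in mature cells. It went from 148 to 52.4 CPM in Col1a1fspKO, a ratio of 0.353 (0.205 to 0.574), and from 183 to 67.6 CPM in WT, a ratio of 0.369 (0.166 to 0.714). Its main step was the first, from Fcnb-high to immature cells, at 0.618 and 0.463. Being lower was common along this series, since 46.7% of all genes tested in Col1a1fspKO and 46.3% in WT were lower by the same log2 ratio. Pgam1 had ratios of 0.994 (0.776 to 1.27) and 0.915 (0.630 to 1.29) from 98 and 36 UMIs in mature cells. Pgk1 and Pfkl had under 100 UMIs and were not counted. Pgk1 had a ratio of 2.63 (1.40 to 4.97) in Col1a1fspKO and 1.92 (0.713 to 4.47) in WT.

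**Figure D2:**
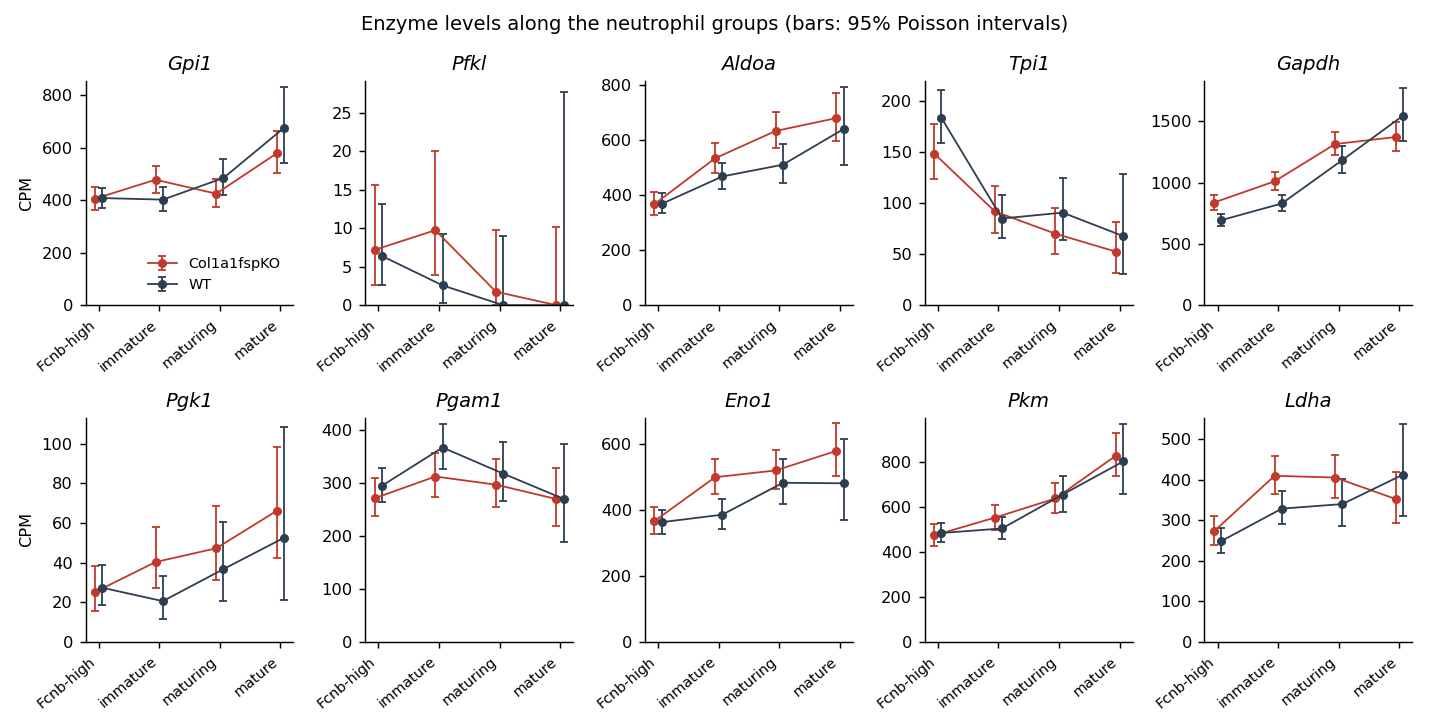
CPM (y axis, from 0, a scale for each enzyme) of the 10 enzymes in 4 neutrophil groups ordered by markers of maturation (x axis), for Col1a1fspKO in red and WT in dark blue, with exact Poisson 95% intervals. Gapdh, Aldoa and Pkm are higher at the mature end, Tpi1 falls from 148 and 183 CPM to 52.4 and 67.6 CPM, and Pfkl reaches 0 UMIs.

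The direction depended on the scale. CPM is a share of the transcripts of a cell group, and the cells held fewer UMIs further along the same order. The mean over cells went from 9490.4 UMIs in Fcnb-high to 3210.2 UMIs in mature neutrophil-like cells of Col1a1fspKO, and from 9216 to 3503 UMIs in WT. Enzyme UMIs per cell went from 30.1 over 18.0 and 15.8 to 15.3 in Col1a1fspKO, and from 28.4 over 16.1 and 15.4 to 17.3 in WT. Mature cells thus held fewer captured enzyme transcripts each, while these were a larger share of what they held. A smaller amount of RNA per cell and a lower rate of capture cannot be told apart here. Cell cycle genes dropped with the same order, from 2504 to 63 CPM in Col1a1fspKO and from 2579 to 45 CPM in WT for 12 proliferation markers summed.

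**Figure D3:**
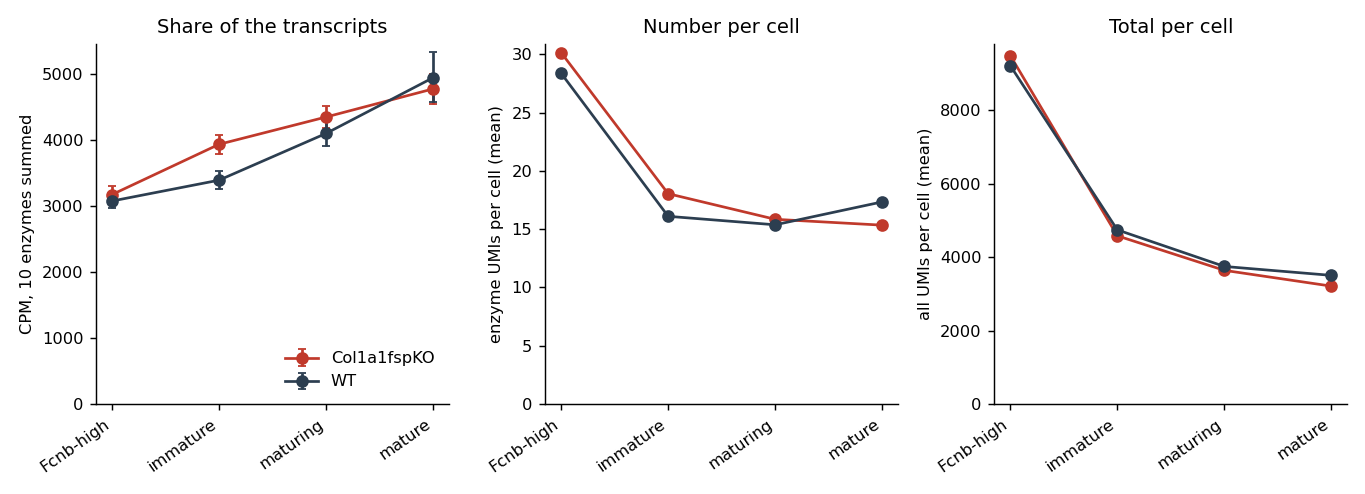
The 10 enzymes summed along the 4 neutrophil groups (x axis) as CPM with exact Poisson 95% intervals (left), as enzyme UMIs per cell (middle) and beside all UMIs per cell (right), for Col1a1fspKO in red and WT in dark blue, all y axes from 0. CPM is higher at the mature end (4780.1 and 4950.3), while enzyme UMIs per cell are lower (15.3 and 17.3 against 30.1 and 28.4).

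How far the members moved together was described over 26 points, the clusters with at least 20 cells in each library, which share libraries and depth. On log2(CPM + 10), Pearson's r over the 45 pairs of members ran from -0.33 to 0.92 with a median of 0.60. Pgam1 with Pkm had the highest r (0.92), followed by Eno1 with Pkm (0.92). All 7 pairs below 0 included Pfkl or Tpi1, and the 28 pairs without those genes had a median of 0.78. With the summed proliferation markers, Tpi1 had r = 0.69 and Pfkl 0.57, against -0.62 for Gpi1 and -0.55 for Aldoa. Ldha had 0.13, and the other members were below 0.

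Of the other isoforms of the same steps, 9 of the 13 listed for comparison were in the tables, and summed they had 59 and 58 CPM over all cells, against 3128 and 2888 CPM of the members. Pklr, the pyruvate kinase gene of liver and red cells, had 19 and 27 UMIs in erythroid-like cells, and in all the other groups together 1 UMI in Col1a1fspKO and 0 in WT. Pklr stood there at 16.0 and 21.2 CPM beside 10.9 and 11.8 CPM of Pkm, which was near background. Pfkm, the muscle-type phosphofructokinase, was also highest there in both libraries, at 17.6 and 25.2 CPM beside 8.40 and 8.66 CPM of Pfkl. Over all cells Pfkp, a further phosphofructokinase gene, had 105 and 97 UMIs and Pfkm 37 and 43, beside 118 and 135 of Pfkl. At this step the other isoforms were thus not scarce beside the member. In mature neutrophil-like cells, where Pfkl had 0 UMIs, Pfkp had 4 and 0. Ldhb, the heart-type lactate dehydrogenase, formed 37.1% (21.5 to 55.1) and 48.3% (29.4 to 67.5) of Ldha and Ldhb UMIs in plasmacytoid dendritic-like cells. In Fcnb-high neutrophil-like cells it formed 9.88% and 9.30%, and in the later neutrophil groups it had at most 2 UMIs per group and library. Ldhc, known as the testis form, had 36 and 58 UMIs in neutrophils. Ldhc starts 5575 bases beyond the end of Ldha on the same strand, and its transcripts were not told apart from read-through here.

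Glucose entry differed between groups as well. Adpgk, which phosphorylates glucose with ADP in place of ATP, outranked every hexokinase in neutrophils, at 373 and 409.8 CPM, and was at most 64.8 CPM in any other group. Among hexokinases, Hk3 had 78.8 and 79.5 CPM in neutrophils, Hk2 was highest in eosinophil/basophil-like cells (126 and 111 CPM) and Hk1 in erythroid-like cells (108 and 93.6 CPM). The glucose transporter Slc2a3 was 6.80-fold (4.14 to 11.6) and 6.32-fold (3.50 to 11.2) higher in mature than in Fcnb-high neutrophil-like cells. Slc2a1, a widely expressed transporter, had 29 and 28 UMIs over all cells. Between the same neutrophil groups Pygl, which releases glucose phosphate from glycogen, was 4.32-fold and 3.61-fold higher. Slc16a3, an exporter of lactate, had 119 and 75.1 CPM in mature cells against 20.4 and 25.5 CPM in Fcnb-high cells. The WT value rests on few UMIs, since 3 UMIs make 22.5 CPM in the mature cells of WT. Among genes with at least 50 UMIs over these groups, Slc16a3 was counted as higher in Col1a1fspKO only. Its partner Bsg was lower in mature cells, at 0.428 and 0.221 times the early level, and was highest in erythroid-like cells (1007 and 939.6 CPM).

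The pentose phosphate pathway, which branches off at glucose phosphate and makes NADPH, had 9 listed genes. Of these, Pgd and Taldo1 were higher in mature neutrophil-like cells in both libraries, with ratios of 2.36 and 2.56 for Pgd and of 2.75 and 2.50 for Taldo1. Pgls and Rpia were lower, with ratios of 0.413 and 0.303 for Pgls. Minpp1, a phosphatase that also acts on bisphosphoglycerate, had its highest level in erythroid-like cells (302 and 292 CPM). Erythroid-like cells, lowest for the summed CPM of the members, were therefore not low for every gene of sugar metabolism.

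**Figure D4:**
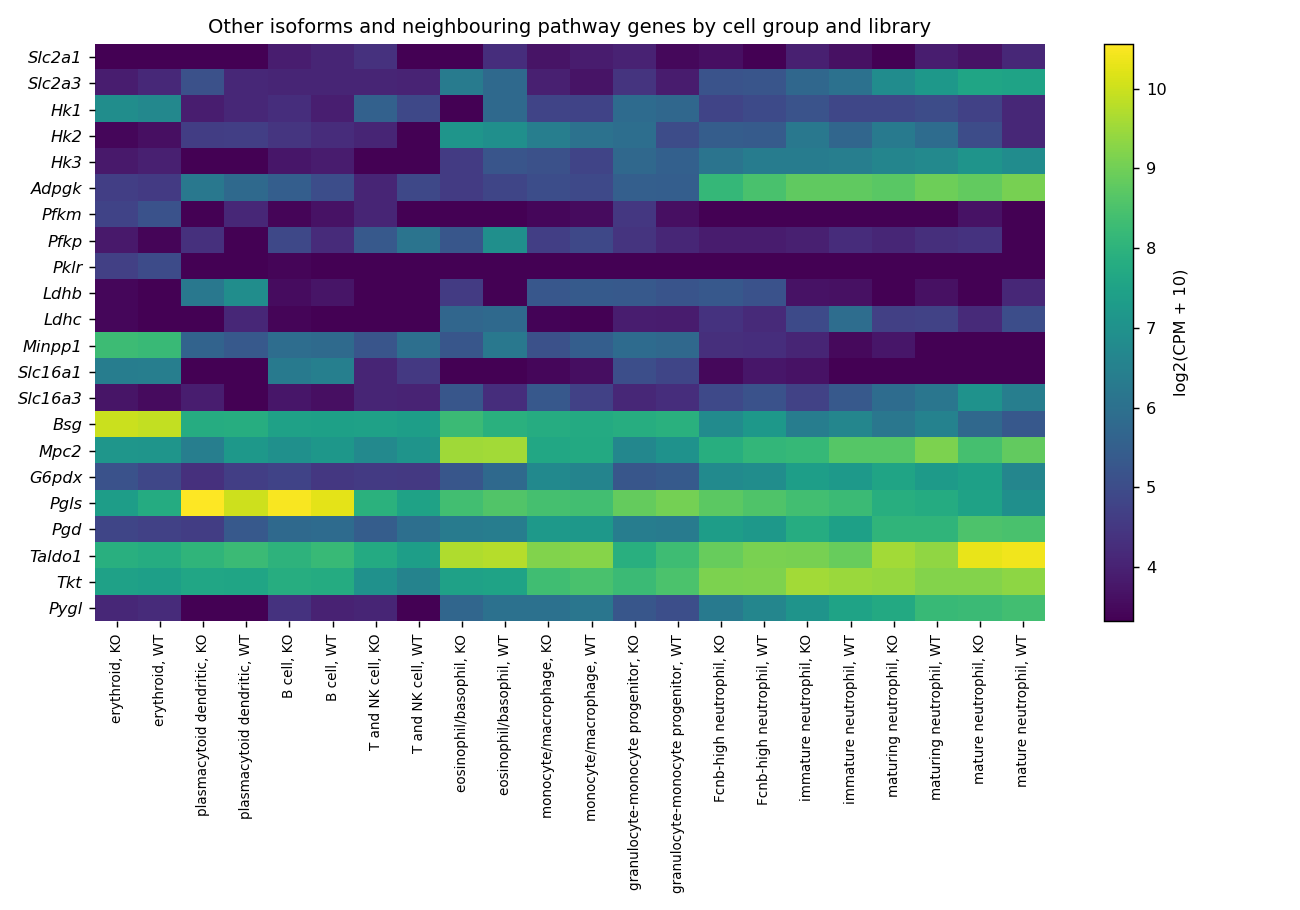
Level as log2(CPM + 10) (colour) of 22 genes of glucose entry, other isoforms, lactate and pyruvate transport, the pentose phosphate pathway and glycogen breakdown (rows) in the 11 cell groups of the Col1a1fspKO (KO) and WT libraries (columns). Adpgk is bright in the neutrophil groups only, Pklr is above the floor in erythroid-like cells, and Slc2a3, Pygl and Taldo1 are brightest in mature neutrophil-like cells.

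Between the libraries, the 10 enzymes summed were 1.08 times as high in Col1a1fspKO as in WT over all cells (interval 1.06 to 1.10), a log2 ratio of 0.12. Over all neutrophils the level was 3901 against 3457 CPM, a ratio of 1.13 (1.10 to 1.16). Counted as enzyme UMIs per cell the order was the reverse, with 20.7 and 21.3 over all cells and 18.9 and 19.4 over neutrophils. WT cells also held more UMIs of all genes. Single members on that scale differed in direction, with 6.55 and 6.62 UMIs per cell for Gapdh but 0.230 and 0.177 for Pgk1. The make-up of the libraries moved with the difference, since mature neutrophil-like cells numbered 113 among the 1309 of Col1a1fspKO but 38 among the 1169 of WT. With the mix of cell groups held equal, a comparison added after the values were seen, the log2 ratio was 0.08.

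Over all cells 7 of the 10 enzymes had a higher CPM in Col1a1fspKO, namely Aldoa, Gapdh, Pgk1, Pkm, Ldha, Eno1 and Gpi1. Of the 8156 genes with at least 100 UMIs, 40.5% did. The median log2 ratio was 0.11 for the enzymes and -0.04 for all those genes. Intervals lay above 1 for 5 enzymes and for 7.47% of all those genes, and below 1 for Tpi1 and for 13.7%. An interval narrows with more UMIs, and those genes were not matched to the enzymes for abundance. The shares are therefore not like for like. A log2 ratio of at least 0.32 in either direction, with an interval that left out 1, was reached by 1 of the 10, Pgk1, and by 9.7% of all those genes. Pgk1 had 301 UMIs (34.8 CPM) in Col1a1fspKO and 207 (24.0 CPM) in WT, a ratio of 1.45 (1.21 to 1.74). Eno1 had a ratio of 1.18 (1.12 to 1.24), Ldha of 1.16 (1.10 to 1.22), Aldoa of 1.13 (1.07 to 1.198) and Gapdh of 1.11 (1.07 to 1.14). Tpi1 was at 137 CPM against 154, a ratio of 0.888 (0.820 to 0.961). With the mix of groups held equal, Pgk1 kept a ratio of 1.39, and Tpi1 had 0.925.

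In neutrophils, 2 of the 9 members with at least 100 UMIs passed the same mark, and 19.4% of the 3017 genes tested did. They were Pgk1, at 40.6 against 28.1 CPM (ratio 1.44, 1.05 to 1.99), and Tpi1, at 100.1 against 129.6 CPM (ratio 0.772, 0.651 to 0.915). A higher CPM in Col1a1fspKO was found for 7 of these 9 members and for 38.9% of all genes. Mature cells were 113 of 515 neutrophils in Col1a1fspKO and 38 of 430 in WT, and the part of this mix was not tested. By group, the summed ratio was 1.03 (0.980 to 1.09) in Fcnb-high and 1.06 (0.997 to 1.13) in maturing cells, with the others given below. Within the single groups, Pgk1 had an interval that left out 1 in immature cells only, and Tpi1 did not in any. Haemoglobin transcripts, which neutrophils do not make, were higher in the neutrophils of Col1a1fspKO too, at 11267 against 7763 CPM for Hbb-bs. The part of free RNA and of cells captured together in these ratios was not tested.

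**Figure D5:**
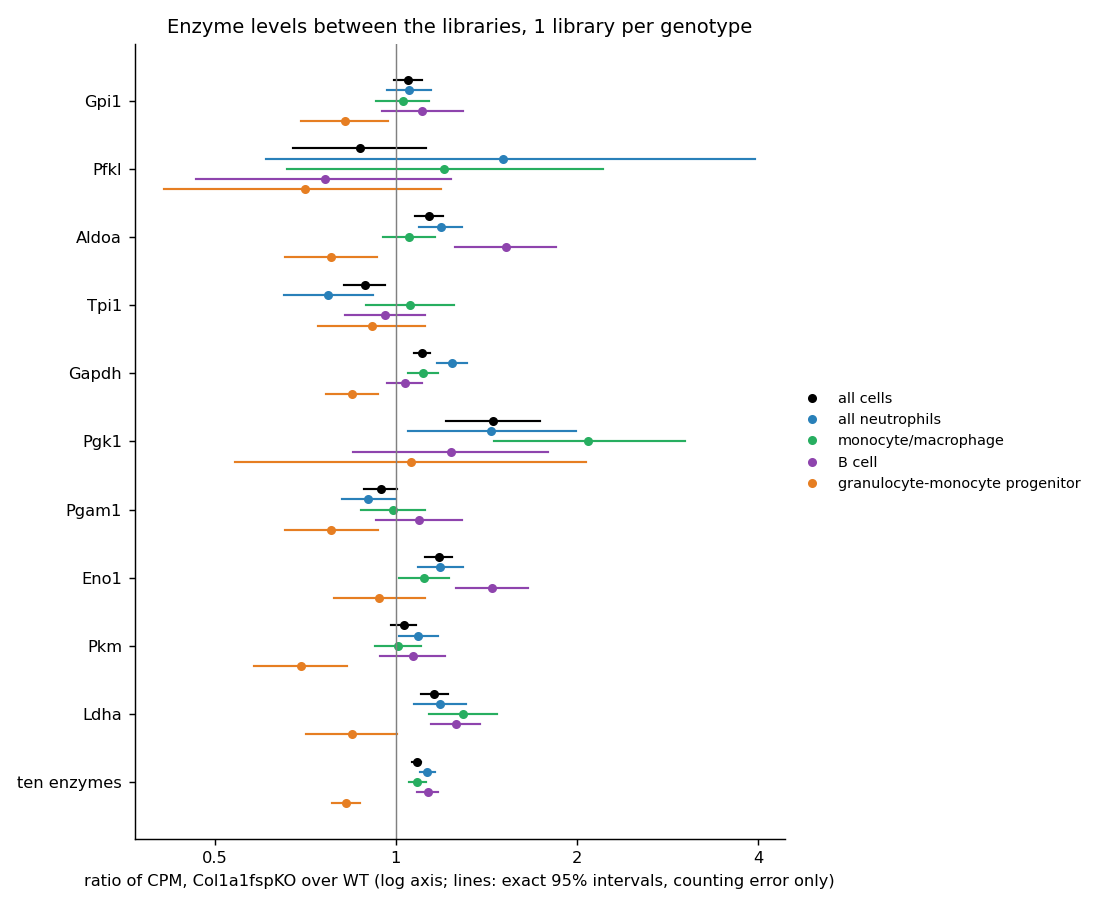
Ratio of CPM in Col1a1fspKO over WT (x axis, log scale) for each enzyme and for the 10 summed (y axis), in all cells and in 4 groups of cells, with points for the ratio and lines for exact binomial 95% intervals, which cover counting error only. Pgk1 lies at 1.45 over all cells and 2.09 in monocyte/macrophage-like cells, and the progenitor-like cells lie at 0.827 for the sum.

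By cell group the summed ratio was above 1 in 8 of 11 groups. The interval lay above 1 in immature neutrophil-like (1.16, 1.10 to 1.22), monocyte/macrophage-like (1.09, 1.05 to 1.12), T and NK cell-like (1.24, 1.10 to 1.41), B cell-like (1.13, 1.09 to 1.18) and eosinophil/basophil-like cells (1.30, 1.12 to 1.52). Mature neutrophil-like cells had 0.966 (0.882 to 1.06), and erythroid-like cells the same 0.966 (0.882 to 1.06). The value for B cell-like cells rested on deep cells, since cells thinned to 2500 UMIs each gave a log2 ratio of -0.02. That for eosinophil/basophil-like cells changed sign, to -0.25, at a coarser clustering.

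Granulocyte-monocyte progenitor-like cells went the other way. They had 2893 CPM in Col1a1fspKO and 3497 in WT, a ratio of 0.827 (0.783 to 0.874), and 31.6 against 42.8 enzyme UMIs per cell. Pkm was lowest relative to WT, at 258 against 371 CPM (ratio 0.696, 0.581 to 0.831), and Aldoa, Gapdh, Pgam1 and Gpi1 also had intervals below 1. These are 5 of the 8 members with at least 100 UMIs there, against 12% of the 1820 genes that met the same minimum. These genes were not matched to the members for abundance, which sets the width of an interval. An interval above 1 was found for 0 of the 8 and for 6.43% of the 1820 genes. All these genes had a median log2 ratio of -0.07 in the progenitor-like cells, and 38% of them were higher in Col1a1fspKO. These cells were deeper in WT, with a median of 10795 UMIs against 8948, and thinned cells gave a log2 ratio of -0.17 with an interval that held 0 (-0.36 to 0.01). The log2 ratio was -0.27 here and ran from -0.33 to -0.08 over 11 other ways of processing the cells.

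Pgk1 was higher in Col1a1fspKO in 9 of the 11 groups, with an interval above 1 in immature neutrophil-like cells (1.96, 1.03 to 3.86) and in monocyte/macrophage-like cells. In the latter it had 98 UMIs (49.9 CPM) against 46 (23.9 CPM), a ratio of 2.09 (1.45 to 3.03). Ldha was higher there as well, at 275 against 213 CPM (ratio 1.29, 1.14 to 1.48). Gapdh had its interval above 1 in 6 of the 11 groups, and its ratio in the 9 and 18 eosinophil/basophil-like cells was 2.77 (1.94 to 3.99). Tpi1 was lower in 9 of the 11 groups, with an interval below 1 in 0 of them, so that its difference showed only in the sums over groups.

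Other genes of sugar metabolism were counted where they had at least 50 UMIs over both libraries. Of the 9725 genes with at least 50, not matched for abundance, 7.12% had an interval above 1 over all cells and 12.4% below it. In the pentose phosphate pathway, 4 of 9 genes had an interval above 1 over all cells (G6pdx, Pgls, Pgd and Rpe) and 1 below it (Rpia). Of 6 other isoforms of the same steps, Eno3 had an interval above 1 and Ldhc, with 46 against 68 UMIs, below it. Of 8 genes of hexokinases and glucose entry, Hk2 was higher, at 40.01 against 29.0 CPM (ratio 1.38, 1.17 to 1.63). In lactate and pyruvate transport Slc16a3 was higher (ratio 1.33, 1.06 to 1.67), while Mpc1 and Mpc2, which form the carrier of pyruvate into mitochondria, were lower (ratios 0.910 and 0.856). Of the 12 genes of glycogen and gluconeogenesis, none had an interval that left out 1, and of 8 regulators of flux only Pfkfb4 did (ratio 1.33, 1.03 to 1.72). Proliferation markers had an interval below 1 for 8 of 12 genes, with a median log2 ratio of -0.19 over the 12. Fcnb-high neutrophil-like cells, the neutrophil group with the highest level of these markers, were 88 of 1309 cells in Col1a1fspKO and 119 of 1169 in WT.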

How the data were processed

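The authors deposited UMI counts, not normalized, for each gene in each cell. Per the labels they used Cell Ranger (version not given in the sources used here), mm10 and Seurat 3.5.3. Members and lists were chosen with earlier results of these data known. Genes absent from a table were set to 0 there. The methods' limits (200 to 7000 genes, at most 10% mitochondrial UMIs) removed 0 cells, and doublets called (5 a library) were kept. Clustering used Seurat 5.3.0 in R 4.3.3, with 27 principal components and resolution 0.8. From 2000 variable genes, the 26 that were among the 92 listed genes were left out. Clusters took the best-scoring class with at least 3 detected markers. The early neutrophil cluster scored as immature, with preneutrophil next, and is called by Fcnb, a choice made after seeing the clusters. UMIs were summed per group, with intervals from scipy 1.17.1 (Python 3.11.15), tested on simulated data. Listed genes with at least 50 UMIs could be named. Shares over all genes used those with at least 100 UMIs, or at least 50 beside the other genes of sugar metabolism. Alternatives changed clustering, cell filters, doublets, integration, depth, scale and thresholds. Positions came from GENCODE M21, upstream windows from RefSeq.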

Additional observations from a re-analysis of the deposited data

How the results depend on the processing

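Intervals cover counting error of 1 library per genotype and say nothing of variation between mice. No paired analysis was possible because each genotype had 1 library. For the 10 enzymes summed, the log2 ratio between the libraries in all cells was 0.12 and ranged from 0.0833 (mix of cell groups held equal, added after seeing the data) to 0.14 over 7 alternatives. Over all neutrophils it was 0.17 and ranged from 0.15 to 0.22, the highest with cells thinned to 2500 UMIs (0.221). The log2 ratio of Fcnb-high over mature neutrophil-like cells on CPM was below 0 in both libraries under every alternative that kept CPM. With single cells placed by marker score it was -0.37 in Col1a1fspKO and -0.26 in WT, and at resolution 1.2 it was -0.55 in WT. It reversed as UMIs per cell, to 0.97 and 0.71, since mature cells hold fewer UMIs. Resolution 0.4 gave no mature cluster and so no value. The B cell-like ratio reversed with thinned cells (-0.0196) and as a mean over cells (-0.0048), where deep cells weigh no more than shallow ones. The eosinophil/basophil-like ratio reversed at resolution 0.4 (-0.25), where the cause was not tested. With a log2 ratio of at least 0.58 asked for, 0 members passed between the libraries. The progenitor-like log2 ratio ran from -0.33 to -0.08 over 11 alternatives, below 0 in each.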

Other observations

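Genes outside the pathway lists were ranked by how alike their level was to the summed enzymes over the 26 combinations of cluster and library. Of 6110 genes with at least 200 UMIs, Gng5, a G protein subunit, came first (Pearson's r = 0.87), followed by Gmfg, Tm6sf1, Cotl1 and Actr3, with Lasp1, Ssu72, Capza1, Twf2 and Arhgdib down to r = 0.80. Actr3 is part of the complex that branches actin, Capza1 caps filaments, and Twf2 and Cotl1 bind actin, while no share of actin genes among all those ranked was taken. These are descriptions over points that share libraries and depth, and genes are not independent replicates.

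Pgls, the lactonase of the pentose phosphate pathway, had a pattern unlike the members. Its highest levels were in plasmacytoid dendritic-like cells (1499 CPM in Col1a1fspKO and 1030 in WT), where the summed members were second lowest, and in B cell-like cells (1434 and 1214 CPM), the former first in Col1a1fspKO and the latter first in WT. In neutrophils it was at 307 and 306 CPM. Mpc2 was highest in eosinophil/basophil-like cells, at 729 and 746 CPM from 52 and 81 UMIs.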
